A study of Sus scrofa with 12 samples.

Results

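The comparison described here is that of sucking piglets from sows fed resveratrol (W-Res) with sucking piglets from control sows (W-Con), 3 jejunum libraries against 3 at 21 days of age. These are 6 of the 12 libraries of the series, chosen by their labels alone. Loci entered the comparison if they had a gene name and averaged 0.5 FPKM or more across these 6 libraries, which was the case for 15005 of the 41264 loci in the table. Values are FPKM, fragments scaled to exon length and to the mapped reads of a library. A fold change is the difference of the group means of log2(FPKM + 1), W-Res minus W-Con, and is smaller than the true ratio for genes with low FPKM.

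All sows were bred with pooled Landrace semen and ate a corn-soybean meal diet. W-Con sows received that diet alone, and W-Res sows received it with 300 mg/kg resveratrol from early gestation to the end of lactation. Piglets were cross-fostered within a diet and sampled on the day of weaning at 21 days. The other 6 libraries come from piglets of the same 2 diets at 28 days, a week after the sows were removed (PW-Con and PW-Res), and serve here for values set beside the 21-day ones. The labels give neither litter nor sex. The study's methods describe sucking piglets as males, 1 per litter, of a Yorkshire and Duroc cross, which differs from the Landrace semen of the labels. Litter was therefore in no fit.

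Resveratrol is a plant polyphenol studied as an activator of sirtuins, which are NAD-dependent deacetylases, and of AMP-activated protein kinase (AMPK), the energy sensor of the cell. It is also known to act on antioxidant defence through NRF2 and on inflammatory signalling through NF-kappaB. A piece of jejunum holds absorptive enterocytes and goblet cells over a core of connective tissue, lymphocytes and nerves, with smooth muscle below. The sucking piglet absorbs milk fat with its enterocytes, while its lymphocytes, many of them gamma-delta T cells in the pig, move into the epithelium during the first weeks of life.

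The 6 libraries had similar summed FPKM (314234 to 334469), and the read depth behind single loci is unknown. W-Res replicates 2 and 3 stood apart in the low range of the table, with a median over all loci of 1.12 and 0.836 FPKM, against 0.315 to 0.429 in W-Con and 0.479 in W-Res replicate 1. Pearson's r of log2(FPKM + 1) across the 15005 loci, which are not independent replicates, was 0.922 to 0.953 within W-Con, 0.884 to 0.917 within W-Res and 0.867 to 0.936 between the groups. The ileal bile acid binding protein FABP6 varied widely within both groups and was at 8055, 1231 and 9.10 FPKM in W-Con replicates 1 to 3 and at 128, 12.2 and 6146 in W-Res replicates 1 to 3. Where along the jejunum each piece was taken is not given.

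By an unadjusted P under 0.05 with a log2 fold change above 1 or below -1, the standard of the study, 600 of 15005 loci differed between the diets. Of these, 369 (2.46%) were higher in W-Res and 231 (1.54%) lower. Another scaling moved this split, since the share of calls that were higher was 61.5% as deposited, 52.7% after median-of-ratios rescaling and 48.2% after quantile normalization. It was 38.7% in a linear model of Ballgown's form, which adds a library term and also leaves out the moderation of the variance. In limma, 1907 loci (12.7%) had an unadjusted P under 0.05, and 1 locus (0.00666%) had an adjusted p under 0.05. The median fold change over all loci was 0.0685, and the W-Res and W-Con values did not overlap for 3058 loci (20.4%). In the text below a gene called higher or lower met the standard, no named gene but one locus of NR2C2 reached an adjusted p of 0.05, and 39 of the 92 named loci that met the standard did so with each library left out in turn.

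The clearest group of lower genes in W-Res jejunum was that of T cells and cytotoxic lymphocytes. Of 31 listed markers 28 were found and tested, and 9 of them were lower in W-Res and 0 higher, where 1.54% of all loci were lower. The median fold change of the list was -0.64 against 0.0685 over all loci, 22 of 28 members were below 0, and for 13 the groups did not overlap in the lower direction (7.67% of all loci). Summed over the list, the FPKM were 545, 366 and 435 in W-Con replicates 1 to 3 and 126, 162 and 186 in W-Res. The highest W-Res piglet thus lay below the lowest W-Con piglet. The smallest adjusted p in the list was 0.18 (limma). In bulk tissue, fewer cells of a type and less RNA per cell cannot be told apart.

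Among the chains of the T cell receptor complex, CD3E was at 71.3, 44.2 and 50.0 FPKM in W-Con (mean 55.2 ± 14.2, SD, n = 3) and at 11.5, 18.2 and 19.8 in W-Res (16.5 ± 4.38), a fold change of -1.69 (standard error 0.28, limma adjusted p = 0.209). CD3D was at 21.3, 15.8 and 14.8 FPKM in W-Con and at 2.03, 7.26 and 2.91 in W-Res, a fold change of -1.97 (standard error 0.38). For both, all W-Res piglets lay below all W-Con piglets. CD3G (-1.23) and the signalling chain CD247 (-1.50) were lower in the same way, as was CD2, an adhesion receptor of T cells (-1.37). IL2RB, a receptor chain for IL-2 and IL-15, was at 26.2, 18.7 and 21.0 FPKM in W-Con and 9.45, 12.0 and 9.23 in W-Res (-1.03), and fell short of the standard without W-Con replicate 1 (-0.90), W-Res replicate 1 (-0.98) or W-Res replicate 3 (-0.96).

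GNLY and GZMA, which encode proteins of cytotoxic granules, had the largest fold changes of the list. GNLY, the antimicrobial granulysin, was at 103, 55.0 and 123 FPKM in W-Con (93.7 ± 34.9) and 18.5, 8.67 and 11.6 in W-Res (12.9 ± 5.02), a fold change of -2.75 (standard error 0.38, limma adjusted p = 0.178). GZMA, the protease granzyme A, was at 139, 69.3 and 60.8 FPKM against 6.78, 12.7 and 29.4 (-2.52, standard error 0.52), and the next locus of the same name gave -2.59. For both genes even the highest W-Res value was below the lowest of W-Con.

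Other members of the list gave no call. CD8A (14.3, 11.4 and 17.1 FPKM in W-Con against 4.45, 4.49 and 14.1 in W-Res) had a fold change of -0.98 with overlapping groups. CD4 (7.07, 10.2 and 5.0 against 6.46, 17.3 and 6.49) had 0.31, with a 95% interval from -0.65 to 1.26, and the pore-forming PRF1 had 0.36 (-0.49 to 1.20). The kinase LCK (-0.60) and the epithelial homing integrin ITGAE (-0.74) were below W-Con in all 3 W-Res piglets but short of the fold required.

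A further list of T cell receptor and natural killer receptor genes, written after values had been seen, gave 5 lower (1.54% of all loci) and 1 higher (2.46%) of 16 tested, with a median of -0.77. TRDC, the constant region of the T cell receptor delta chain, was at 23.1, 10.3 and 11.9 FPKM in W-Con and at 2.23, 2.17 and 3.54 in W-Res, a fold change of -2.08 (standard error 0.33). TRGV11, a gamma chain variable segment (-1.40), and the chemokine XCL1 (-1.3) were lower too. CD244, a receptor of natural killer and T cells, had -1.19 and missed the standard without W-Con replicate 1 (-0.91). The member called higher (1.44) was 1 of 2 loci of the gut homing receptor CCR9, listed at 0 in all of W-Con and in W-Res replicate 1. With both loci summed CCR9 was at 0.247, 0.506 and 0.471 FPKM against 0.0242, 5.37 and 2.59 (1.03) and was not called. The call of the locus was lost without any 1 of W-Con replicates 1 to 3 (1.44 each) or W-Res replicate 3 (1.29). Without W-Res replicate 2 the locus fell below the minimum of 0.5 FPKM and was not tested.

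**Figure D1:**
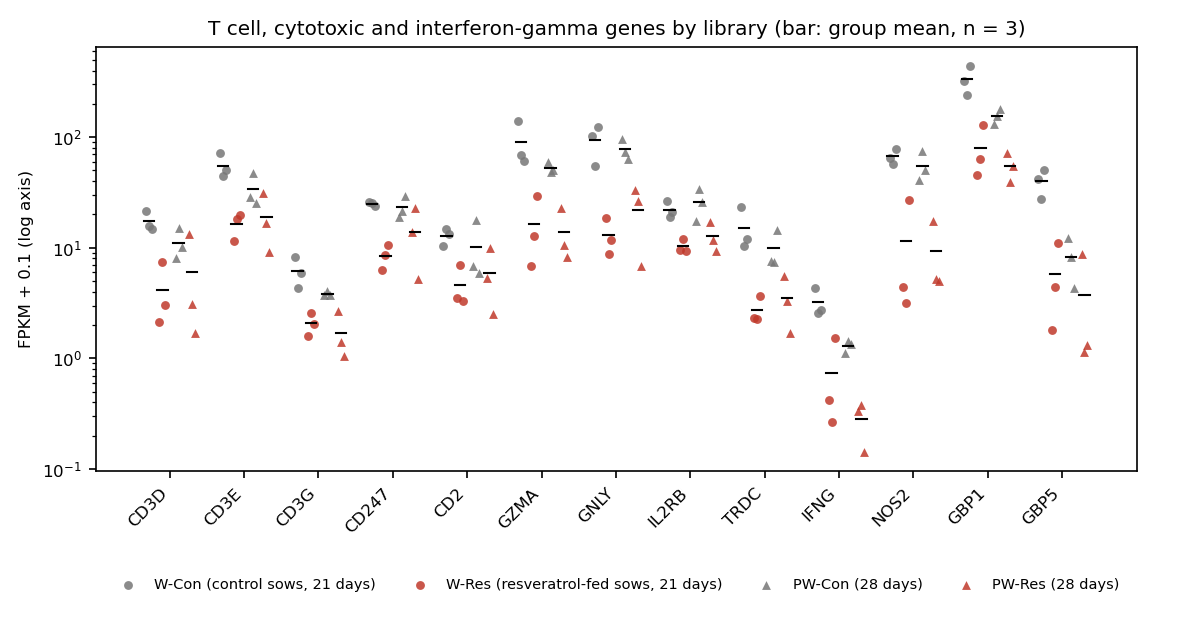
FPKM + 0.1 on a log axis for 13 genes of T cells, cytotoxic granules and interferon-gamma response, 1 point per library (circles 21 days, triangles 28 days, grey control sows, red resveratrol-fed sows) with a bar at the group mean (n = 3). At 21 days the red circles lie below the grey ones for each of these genes, for example 11.5 to 19.8 against 44.2 to 71.3 for CD3E.

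Markers of the B lineage and of myeloid cells had medians near 0 at 21 days. Of 12 tested B cell and plasma cell markers 1 was lower (1.54% of all loci) and 0 higher, with a median of 0.04. CD79A, part of the B cell receptor, was at 150, 146 and 144 FPKM in W-Con and at 188, 230 and 173 in W-Res (0.41, 95% interval -0.06 to 0.88). Of 13 myeloid markers, with a median of -0.01, 1 was lower (1.54% of all loci), the costimulatory ligand CD86 (-1.01), which missed the standard without W-Con replicate 1 (-0.92), W-Con replicate 3 (-0.81) or W-Res replicate 2 (-0.82). The complement gene C1QA, made by macrophages, was at 105, 120 and 101 FPKM in W-Con against 162, 320 and 132 in W-Res (0.80, 95% interval 0.02 to 1.59), short of the fold required.

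Among 29 genes of interferon-gamma and its response, a list written after values had been seen, 6 were lower in W-Res (1.54% of all loci were) and 0 higher. The median of the list was -0.63 against 0.0685 over all loci, and 5 of 29 were above 0 (56.5% of all loci). IFNG itself, the cytokine made by T and natural killer cells, was at 4.27, 2.48 and 2.65 FPKM in W-Con and 0.323, 0.168 and 1.43 in W-Res, a fold change of -1.39 (standard error 0.34). NOS2, the inducible nitric oxide synthase, was at 65.2, 57.3 and 78.0 FPKM against 4.32, 3.10 and 26.7, a fold change of -2.99 (standard error 0.66, limma adjusted p = 0.317). Both genes were below W-Con in every W-Res piglet, with W-Res replicate 3 the nearest to the controls.

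Of 6 guanylate-binding protein genes listed, GTPases that attack intracellular microbes, 3 were found by name and tested, and all 3 were lower. GBP1 was at 320, 240 and 437 FPKM in W-Con (333 ± 99.0) and at 45.5, 63.4 and 130 in W-Res (79.5 ± 44.2), a fold change of -2.15 (standard error 0.41). GBP5 was at 41.6, 27.3 and 50.0 against 1.70, 4.34 and 10.9 (-2.83, standard error 0.52), and GBP4 had -1.48. The checkpoint ligand CD274 had -1.69. The number of lower members rose from 6 to 11 without W-Res replicate 3 and was 1 in the linear model of Ballgown's form. With the smooth muscle level as a covariate GBP1 (-1.29) and GBP5 (-1.90) met the standard, and NOS2 (-1.44), IFNG (-0.94), GBP4 (-0.70) and CD274 (-0.49) did not. In that fit 3 members met it that had not before, the class II chains SLA-DRA (-1.18) and SLA-DQB1 (-1.43) in the lower direction and SLA-DOB (1.14) in the higher.

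Of 45 interferon-stimulated genes tested 2 were lower (GBP1 and PARP14, 1.54% of all loci being lower) and 1 higher (IFI44, 2.46%), with a median of -0.17. The linear model of Ballgown's form gave 3 higher and 0 lower. The list had 4 higher and 1 lower without W-Res replicate 2, and 1 higher and 7 lower without W-Res replicate 3. The antiviral gene OAS1 was at 88.2, 246 and 290 FPKM in W-Con and 702, 136 and 141 in W-Res, ISG12(A) at 274, 319 and 379 against 687, 270 and 1179, and in both genes the groups overlapped. IFI44 (1.29) missed the standard at 0.99 without W-Con replicate 1, 1.02 without W-Con replicate 2, 1.01 without W-Res replicate 1 and 1.19 without W-Res replicate 3. PARP14 (-1.23) missed it without W-Con replicate 3 (-0.95), W-Res replicate 1 (-1.14) or W-Res replicate 2 (-0.90). SLA-DRA, a class II antigen-presenting chain, was at 917, 1033 and 559 FPKM against 567, 1561 and 507, with a fold change of -0.08 (95% interval -1.17 to 1.01), which became -1.18 and met the standard with the smooth muscle level as a covariate.

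Of 35 inflammatory cytokines and NF-kappaB targets tested, 5 were lower (1.54% of all loci) and 1 higher (2.46%), and the median was 0.02. With the smooth muscle level as a covariate 0 were called, CCL5 having -0.98, CCL4 -0.84 and CCL8 -0.80. Beside NOS2 and IFNG, the lower members were chemokines that attract T cells and monocytes. CCL5 was at 40.0, 33.0 and 38.2 FPKM in W-Con (37.0 ± 3.62) and at 16.7, 15.6 and 17.8 in W-Res (16.7 ± 1.06), a fold change of -1.10 (standard error 0.19, limma adjusted p = 0.209), with little spread in either group. CCL8 (-1.21) missed the standard without W-Res replicate 1 (-0.82) and CCL4 (-1.06) without W-Res replicate 2 (-0.94). CCL21, a chemokine of lymphatic vessels, was at 16.2, 40.5 and 17 FPKM against 44.3, 108 and 44.6 (1.38), and missed the standard without W-Con replicate 1 (1.15), W-Con replicate 3 (1.19) or W-Res replicate 2 (0.96). TNF (-0.40, 95% interval -1.0 to 0.20) and CXCL8 (0.02, -0.48 to 0.52) were not called, and neither was CCL25, the chemokine of the small intestinal epithelium that draws T cells in, at 592, 644 and 682 FPKM against 740, 728 and 811 (0.25).

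Smooth muscle markers had the highest median fold change of all 31 lists. All 16 tested markers had a fold change above 0 (56.5% of all loci did), 12 met the standard in the higher direction (2.46% of all loci did), the median was 1.87 and the smallest adjusted p in the list was 0.34 (limma). Only 4 of the 16 had groups that did not overlap (12.7% of all loci in that direction). The summed FPKM of the 17 markers found were 831, 936 and 242 in W-Con replicates 1 to 3 and 2889, 5990 and 942 in W-Res. The excess thus lay mainly in W-Res replicates 1 and 2, while W-Res replicate 3 was level with W-Con replicates 1 and 2, and W-Con replicate 3 was the lowest.

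The enteric actin ACTG2 was at 107, 136 and 20.4 FPKM in W-Con and at 614, 1248 and 116 in W-Res, a fold change of 2.72 (standard error 0.98, limma adjusted p = 0.369). TAGLN, an actin-binding protein of smooth muscle, was at 144, 180 and 59.9 against 593, 1525 and 173 (2.21, standard error 0.77). In both, W-Res replicate 3 fell within the range of W-Con. The light chain MYL9 (41.5, 21.2 and 11.7 against 178, 381 and 60.8, fold change 2.82) and the intermediate filament DES (18.4, 21.8 and 3.99 against 122, 220 and 26.7, 2.80) had no overlap and met the standard with each library left out. Leaving out W-Con replicate 3, W-Res replicate 1 or W-Res replicate 2 reduced the 12 calls to 2, leaving out W-Res replicate 3 raised them to 14, and the linear model of Ballgown's form gave 0.

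Other genes of the muscle layer moved with these, among them CNN1 (2.70), TPM2 (2.26), CSRP1 (1.97), SMTN (1.65) and MYLK (1.77), the kinase of the myosin light chain. Each of these 5 missed the standard without W-Con replicate 3, W-Res replicate 1 or W-Res replicate 2 (for CNN1 2.06, 2.47 and 2.01, for MYLK 1.15, 1.65 and 1.33), and TPM2 also without W-Con replicate 1 (2.45). ACTA2, the actin of vascular smooth muscle and myofibroblasts, was at 259, 252 and 57.4 FPKM against 277, 577 and 299 and was not called (1.22, 95% interval -0.19 to 2.62). KCNMB1, a subunit of the calcium-activated potassium channel of smooth muscle, was at 2.14, 1.76 and 0.613 against 19.6, 46.3 and 2.15 (2.59), and missed the standard without W-Con replicate 3 (2.30), W-Res replicate 1 (2.34) or W-Res replicate 2 (1.74). PYGM, the muscle form of glycogen phosphorylase, followed the same libraries with 6.84, 6.63 and 1.71 against 32.8, 52.9 and 7.51 (2.19) and lost its call without the same 3 (1.69, 1.97 and 1.64).

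**Figure D2:**
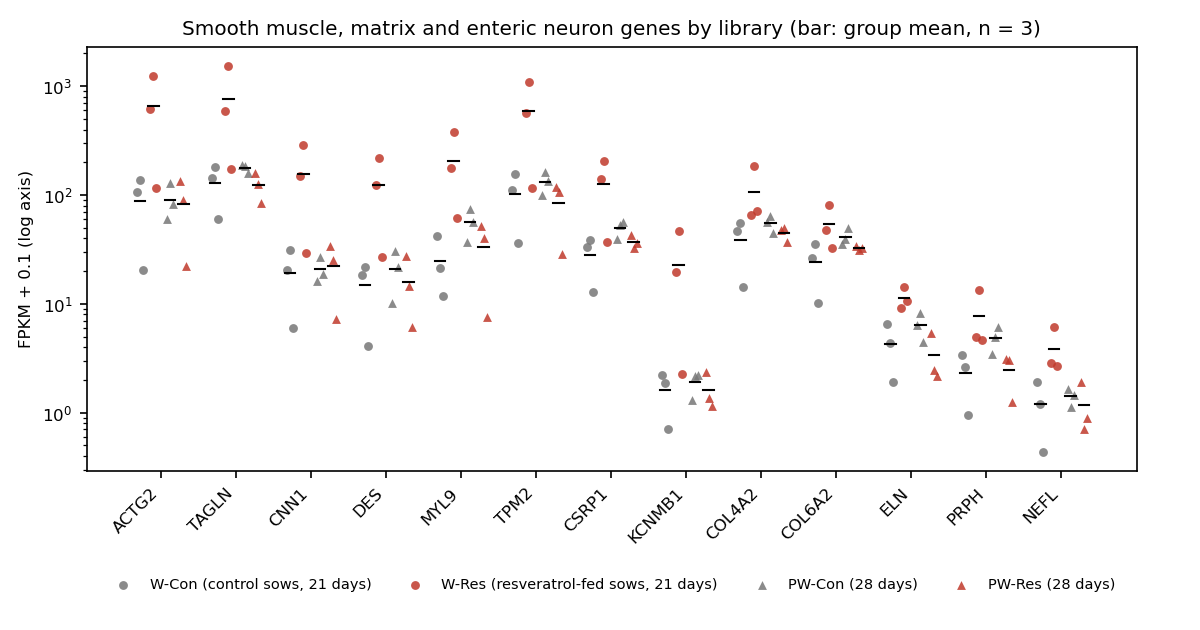
FPKM + 0.1 on a log axis for 13 genes of smooth muscle, matrix and enteric neurons, 1 point per library (circles 21 days, triangles 28 days, grey control sows, red resveratrol-fed sows) with a bar at the group mean (n = 3). For ACTG2 the W-Res circles stand at 614, 1248 and 116, so that 1 of the 3 lies inside the range of the W-Con circles (20.4 to 136).

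Connective tissue and nerve genes showed smaller differences in the same direction. Of 46 extracellular matrix and mesenchymal genes, a list written after values had been seen, 13 were higher (2.46% of all loci) and 0 lower, 43 were above 0 (56.5% of all loci) and the median was 0.93. The abundant fibrillar collagen COL3A1 was at 474, 252 and 105 FPKM in W-Con and 289, 908 and 284 in W-Res, with overlapping groups (0.85, 95% interval -0.64 to 2.34). The basement membrane collagen COL4A2 was at 46.2, 55.1 and 14.3 against 66.0, 184 and 70.6 (1.49), and missed the standard without W-Con replicate 3 (0.90) or W-Res replicate 2 (1.01). Elastin, ELN, was at 6.41, 4.23 and 1.80 against 9.07, 14.1 and 10.5 (1.34) and missed it without W-Con replicate 3 (0.95). FMOD, a collagen-binding proteoglycan, had 1.84 and MFAP2, of elastic microfibrils, 1.52, both in each leave-out. The 13 calls became 2 without W-Con replicate 3, 4 without W-Res replicate 2 and 0 in the linear model of Ballgown's form, where the median of the list turned to -0.2057. With the summed smooth muscle level as a covariate 0 were higher and 3 lower, and the median was -0.2067.

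Of 15 enteric neuron and glia markers all were above 0 (56.5% of all loci), 3 were higher (2.46% of all loci), and the median was 0.61. The 3 calls became 0 in the linear model of Ballgown's form and with the smooth muscle level as a covariate. The neuronal intermediate filament PRPH was at 3.31, 2.55 and 0.849 FPKM in W-Con and 4.91, 13.4 and 4.58 in W-Res (1.35), missing the standard without W-Con replicate 3 (0.99) or W-Res replicate 2 (0.91). NEFL had 1.19 (0.90 and 0.88 without the same libraries), and the neuropeptide galanin, GAL, 1.26 (0.84 without W-Con replicate 3). VIP, the peptide of secretomotor neurons, was at 10.0, 5.23 and 1.92 against 4.15, 8.51 and 7.45, with overlapping groups.

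A fit with the log2 summed FPKM of the smooth muscle list as a covariate, chosen after seeing the data, lowered the loci with an unadjusted P under 0.05 from 1907 to 876. In it the same 9 T cell markers met the standard in the lower direction, with a list median of -0.47. Of the 6 calls in the T cell and natural killer receptor list 4 were kept, and ITGB7 (-1.04) was gained. Calls fell to 0 for the inflammatory, NRF2, B cell, brush border, fat absorption, goblet cell, enteroendocrine, tight junction, respiratory chain and enteric neuron lists. The interferon-gamma list kept 2 of its 6 calls and gained 3, interferon-stimulated genes kept 2 of 3 and gained 3 higher ones, and transporters kept 0 of 3 and gained 1 higher. Cholesterol synthesis gained 4 lower calls and crypt genes 2. With W-Res replicates 2 and 3 both left out, which leaves 1 W-Res library assumed to vary like the others, 12 T cell markers met the standard in the lower direction. Blood and endothelial markers gave 0 calls of 8 tested (limma, 1 with an unadjusted P under 0.05, 0 calls in the Ballgown form), with 7 of 8 above 0, a median of 0.41 and summed FPKM of 55.0 to 134 in W-Con and 129 to 214 in W-Res. PECAM1 of the vessel lining was at 29.1, 32.4 and 12.4 FPKM against 24.8, 35.9 and 30.5.

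**Figure D3:**
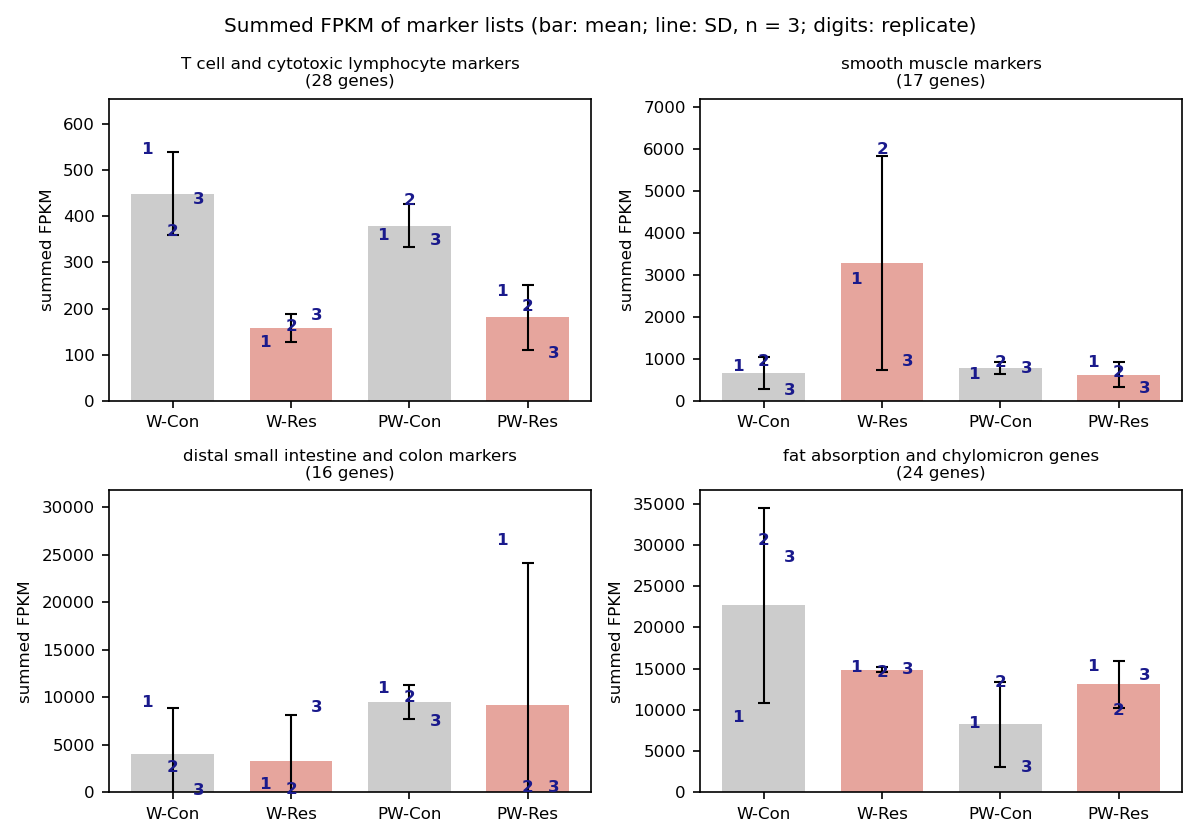
Summed FPKM of 4 marker lists in the 4 groups, with bars for the group mean, lines for the SD (n = 3) and digits for the replicate. The T cell sum lies between 126 and 186 in W-Res and between 366 and 545 in W-Con, whereas the distal sum ranges from 250 to 9439 within W-Con.

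On the epithelial side there were few calls. Of 18 villus brush border genes 1 was lower (1.54% of all loci) and 0 higher, 4 were above 0 (56.5% of all loci) and the median was -0.23. Without W-Res replicate 3, 4 of the 18 were lower, and in the linear model of Ballgown's form 0 were. ENPEP, the glutamyl aminopeptidase, was at 143, 109 and 48.3 FPKM in W-Con and at 31.8, 12.8 and 35.3 in W-Res, a fold change of -1.86 (standard error 0.50), without overlap and with each library left out. The peptidase ANPEP was at 2654, 2011 and 1314 against 786, 476 and 2969 (-0.88, 95% interval -2.39 to 0.62), with W-Res replicate 3 above all W-Con. The villus keratin KRT20 was at 1021, 876 and 1129 against 689, 442 and 514 (-0.90) and the actin bundler VIL1 at 805, 1011 and 859 against 615, 292 and 793 (-0.76), both without overlap. KRT20 fell short of the fold required only, and VIL1 of both parts of the standard. Sucrase-isomaltase, SI, was at 28.7, 34.8 and 23.0 against 14.2, 24.6 and 33.8 (-0.30).

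Among 24 genes of fat absorption and chylomicron assembly 2 were lower (1.54% of all loci) and 1 higher (2.46%), and 6 were above 0 (56.5% of all loci, list median -0.30). In the linear model of Ballgown's form 0 were called in either direction. The 2 lower genes belong to the same step, since MTTP loads lipid onto the apolipoprotein APOB. MTTP was at 197, 284 and 369 FPKM in W-Con (283 ± 85.8) and at 157, 76.0 and 107 in W-Res (113 ± 40.6), a fold change of -1.33 (standard error 0.34, limma adjusted p = 0.342), and kept its call with each library left out. APOB was at 2.85, 3.50 and 5.66 against 1.33, 0.526 and 1.88 (-1.17), low values for its gene, and missed the standard without W-Con replicate 3 (-0.94) or W-Res replicate 2 (-0.91). The fatty acid binding protein FABP1 was at 3311, 11019 and 12407 against 5775, 3863 and 1809 (-1.16, 95% interval -2.59 to 0.26), and APOA1 at 3586, 10667 and 8860 against 3866, 7310 and 10358 (-0.07), so that W-Con replicate 1 was the lowest control for both. APOC2, the activator of lipoprotein lipase, was higher, at 0, 0.765 and 0.369 in W-Con against 0.966, 5.29 and 1.78 in W-Res (1.28), and was not called without W-Con replicate 1 (1.07), W-Con replicate 3 (1.29) or W-Res replicate 2 (0.80).

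Of 19 transporters of hexoses, peptides and amino acids 2 were lower (1.54% of all loci) and 1 higher (2.46%). Without W-Res replicate 3, 4 were lower and 0 higher, and the linear model of Ballgown's form gave 0 calls. SLC15A1, the peptide transporter PEPT1, was at 63.8, 159 and 177 FPKM in W-Con and at 36.0, 26.1 and 71.4 in W-Res (-1.56, standard error 0.49), with an overlap of W-Res replicate 3 and W-Con replicate 1, and missed the standard without W-Con replicate 3 (-1.29) or W-Res replicate 2 (-1.25). SLC2A2, the basolateral glucose carrier GLUT2, was at 11.6, 10.1 and 15.2 against 3.09, 5.14 and 8.07 (-1.10), and missed it without W-Con replicate 3 (-0.95) or W-Res replicate 1 (-0.81). The sodium-glucose transporter SLC5A1 was at 529, 280 and 237 against 108, 132 and 305 (-1.0) and was not called. SLC7A8, an exchanger of neutral amino acids, was at 6.90, 15.2 and 1.35 against 15.9, 19.8 and 88.3 (2.24), mainly through W-Res replicate 3, and missed the standard without W-Con replicate 1 (2.36), W-Con replicate 3 (1.48) or W-Res replicate 3 (1.49).

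Of 40 respiratory chain genes encoded in the nucleus 7 were above 0 (56.5% of all loci, list median -0.28), 1 was lower (1.54% of all loci) and 0 higher. The Ballgown form gave 0 calls for this list and 0 for the goblet cell and mucin list. Cytochrome c, CYCS, was at 101, 79.7 and 110 FPKM against 71.8, 25.3 and 35.9 (-1.23), a call lost without W-Res replicate 2 (-0.91). The ATP synthase gene ATP5B was at 800, 878 and 979 against 1113, 565 and 381 (-0.51, 95% interval -1.41 to 0.39). Cholesterol synthesis genes had a median of -0.41 with 0 calls of 23 (limma, 1 with an unadjusted P under 0.05, 0 in the Ballgown form), and INSIG1 was at 75.7, 51.4 and 46.2 against 103, 55.4 and 17.9. The membrane mucin MUC13 was lower, at 367, 142 and 248 FPKM against 66.1, 35.0 and 125 (-1.81, standard error 0.51), the one call among 12 goblet cell and mucin genes (1.54% of all loci were lower), and held with each library left out. W-Res replicate 2, the library with the highest smooth muscle sum, was also the lowest of the 6 for ANPEP, VIL1 and MTTP. With the smooth muscle level as a covariate none of the lower epithelial genes named here met the standard, with fold changes of -1.81 for ENPEP, -0.88 for MTTP, -0.44 for APOB, -0.84 for MUC13, -0.54 for SLC15A1, -0.57 for SLC2A2 and -0.94 for CYCS. ANPEP then had 0.07 and VIL1 -0.14.

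The genes most often named as targets of resveratrol gave no call. Of the 22 listed sirtuin and AMPK genes 18 were found and 17 tested, and 0 met the standard (limma, 0 with an unadjusted P under 0.05, 0 in the Ballgown form). Their fold changes ran from -0.67 to 0.39 with a median of -0.09, and the smallest adjusted p was 0.45. SIRT1, the deacetylase itself, was at 1.27, 0.729 and 1.16 FPKM in W-Con and at 0.936, 0.945 and 1.02 in W-Res, a fold change of -0.05 (95% interval -0.58 to 0.47). At a level this low the log2(FPKM + 1) scale compresses any change, so that this interval does not leave out a large relative one. The mitochondrial SIRT3 was at 8.28, 9.46 and 6.36 against 10.4, 11.9 and 8.13 (0.30, -0.24 to 0.85). PRKAA1, the catalytic alpha-1 subunit of AMPK, was at 3.69, 2.75 and 0.917 against 2.39, 0.110 and 1.24 (-0.67, -1.80 to 0.47). The 3 highest members were PRKAG2, a regulatory subunit of AMPK (48.1, 52.9 and 39.9 against 44.0, 24.1 and 31.6, fold change -0.52), the nuclear receptor ESRRA (0.17) and the AMPK subunit PRKAB1 (-0.20), all with overlapping groups. PPARGC1A was not found by name.

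NRF2 targets and xenobiotic enzymes gave little more. Of 26 NRF2 and antioxidant genes 1 was higher (2.46% of all loci) and the median was 0.03. That gene is SOD3, the extracellular superoxide dismutase, at 4.75, 2.94 and 2.57 FPKM in W-Con and 6.91, 13.8 and 4.85 in W-Res (1.03, standard error 0.37), which missed the standard without W-Con replicate 2 (0.96), W-Con replicate 3 (0.89) or W-Res replicate 2 (0.66). NQO1, a classical NRF2 target, was at 3.04, 5.10 and 5.99 against 8.91, 21.1 and 3.97 (0.89, 95% interval -0.32 to 2.10), and NFE2L2, which encodes NRF2, had 0.20 (-0.68 to 1.09). Of 16 xenobiotic response genes 0 met the standard (limma, 1 with an unadjusted P under 0.05, 0 in the Ballgown form), and the aryl hydrocarbon receptor target CYP1A1 was at 0.343, 0.809 and 0.0457 against 0.0471, 6.33 and 0. Transcript levels do not report the activity of these enzymes.

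**Figure D4:**
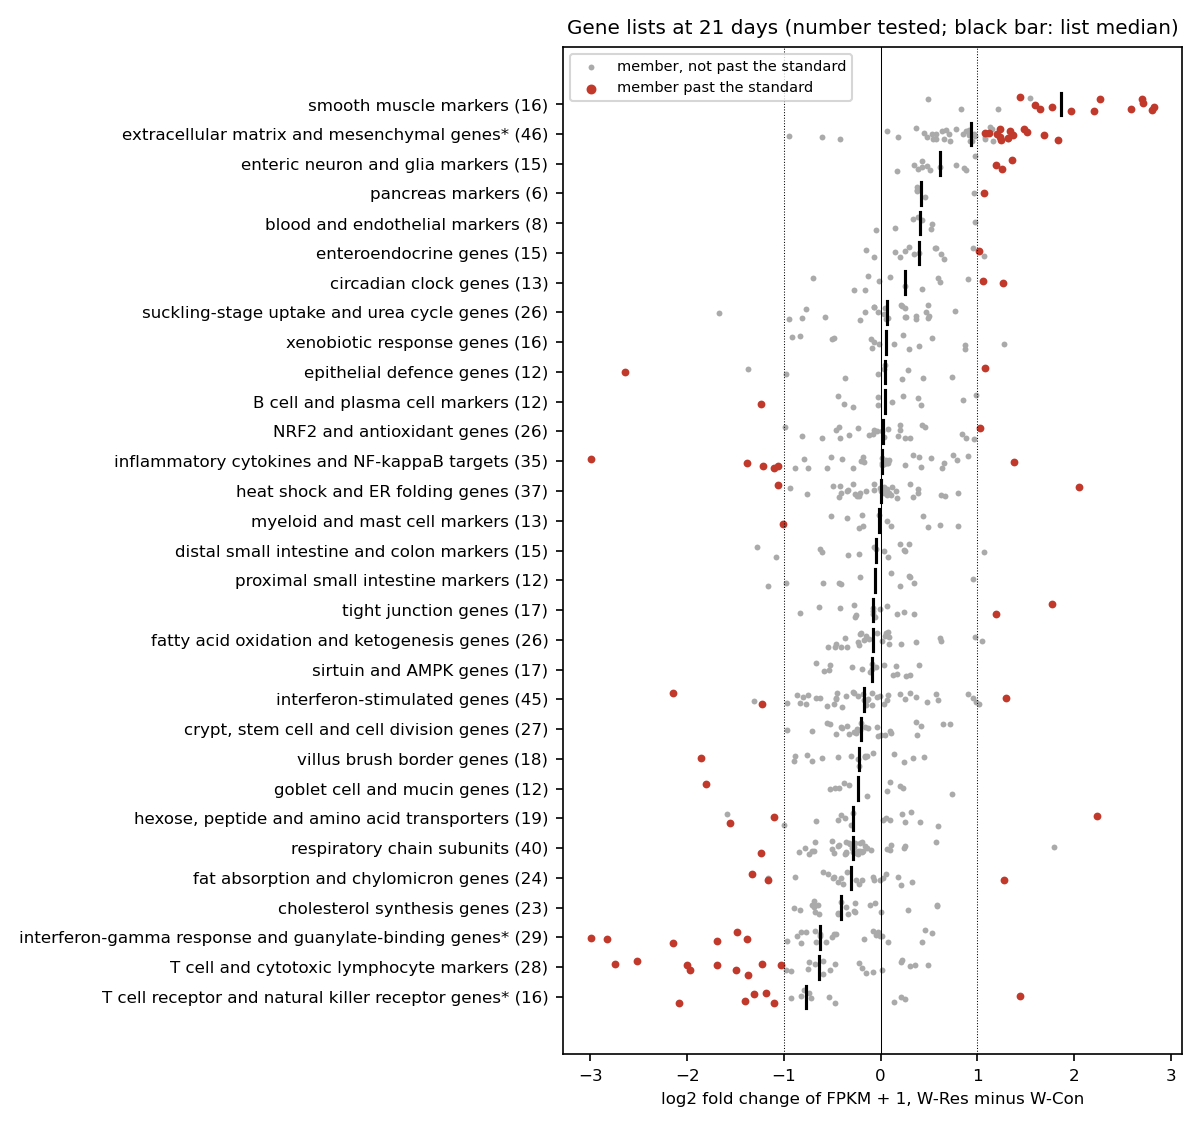
Log2 fold change of FPKM + 1 (W-Res minus W-Con) of each tested member of 31 gene lists, ordered by the list median (black bar), with members past the standard in red, the number tested in parentheses and an asterisk on lists written after values had been seen. Smooth muscle (median 1.87) stands at the upper end, the T cell lists (-0.64 and -0.77) at the lower end, and the sirtuin and AMPK list (-0.09) close to 0.

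Among stress and clock genes, HSPB1, a small heat shock protein, was at 1.93, 1.84 and 4.04 FPKM in W-Con and at 14.1, 16.5 and 10.2 in W-Res, a fold change of 2.05 (standard error 0.30, limma adjusted p = 0.178), and held with each library left out. It was the 1 higher gene (2.46% of all loci) of 37 heat shock and endoplasmic reticulum folding genes. The 1 lower gene (1.54% of all loci) was TRIB3, a pseudokinase induced by amino acid shortage. TRIB3 was at 16.7, 15.4 and 15.2 against 10.1, 3.68 and 8.91 (-1.06, and -0.68 without W-Res replicate 2). For this list the linear model of Ballgown's form gave 2 higher and 0 lower. The clock repressor PER1 was at 8.53, 5.02 and 7.31 against 12.7, 15.5 and 18 (1.06) and missed the standard without W-Con replicate 2 (0.87) or W-Res replicate 3 (0.95). It was among the 2 higher of 13 clock genes (2.46% of all loci). The study's methods place the sampling at 21 days in the morning, and the hour for each piglet is not given in the sources used here.

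The other lists held few calls. Crypt and cell division (27 tested), suckling-stage uptake and urea cycle (26), fatty acid oxidation and ketogenesis (26), proximal (12) and distal (15) intestine genes gave 0 calls each in limma, with 2, 3, 1, 0 and 0 members at an unadjusted P under 0.05 and 1, 1, 1, 0 and 0 calls in the Ballgown form. Without W-Res replicate 3 the suckling-stage list had 4 lower and 0 higher members. The crypt marker OLFM4 was at 802, 623 and 349 FPKM against 1212, 460 and 345, and MKI67 of dividing cells had 0.01 (95% interval -0.87 to 0.89). Of 17 tight junction genes the 2 higher (2.46% of all loci) were MYLK and JAM3 (1.19), the latter lost without W-Con replicate 1 (1.26), W-Con replicate 3 (0.93), W-Res replicate 1 (1.3) or W-Res replicate 2 (0.72), while TJP1 (0.06) and OCLN (-0.42) were not called. The lysozyme LYZ was at 428, 262 and 204 against 25.7, 244 and 13.6 (-2.64), with W-Res replicate 2 among the controls, and was not called without W-Con replicate 1 (-2.35), W-Res replicate 1 (-2.25) or W-Res replicate 3 (-1.82). PGLYRP2, an amidase that cuts peptidoglycan, was higher, at 1.20, 1.98 and 1.60 in W-Con against 4.75, 4.86 and 3.77 in W-Res (1.08, and 0.97 without W-Con replicate 1). Of 15 enteroendocrine genes 1 was higher (2.46% of all loci), the transcription factor ISL1 (1.02), a call lost without W-Con replicate 1 (0.87), W-Res replicate 2 (0.86) or W-Res replicate 3 (0.85), and of 6 pancreas markers 1 was, the lipase PNLIPRP2 (1.07), lost without W-Con replicate 1 (1.0), W-Con replicate 3 (0.87) or W-Res replicate 1 (0.92).

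Several of the largest single differences lie in loci that share a name with others or are listed at 0 in some libraries, and 215 of the 600 loci past the standard have a name with several loci. The locus with the smallest P was 1 of 6 named NR2C2, a nuclear receptor, at 0, 0.0950 and 0 FPKM in W-Con and 8.49, 10.4 and 11 in W-Res (3.40, limma adjusted p = 0.00573). Summed over its 6 loci NR2C2 was at 19.6, 19.3 and 20.6 against 21.3, 19.4 and 18.3, a fold change of -0.01. Of its other loci, the one with the highest FPKM was lower (12.8, 13.9 and 12.0 against 7.53, 4.89 and 2.52, -1.3), and the next had -0.90 (6.22, 4.81 and 7.29 against 3.21, 2.44 and 2.67). TTC21B, of intraflagellar transport, was at 222, 0 and 0 against 231, 322 and 303 (5.55), and its call was lost without any library other than W-Con replicate 1. A locus of PEBP1 with 2.07 was listed at 0 in W-Con replicates 2 and 3 and lost its call without any of the 3 W-Con libraries (2.04 to 2.14), and both PEBP1 loci summed gave 0.06. Without W-Res replicate 3, where it stood at 19.3 FPKM, the PEBP1 locus with 2.07 fell below the minimum of 0.5 FPKM and was not tested.

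Other large falls were of the same uneven kind. MPEG1, the pore-forming perforin-2 of macrophages, was at 36.1, 51.9 and 29.6 FPKM in W-Con and at 0.00640, 0 and 28.6 in W-Res (-3.66), and missed the standard without W-Res replicate 1 (-2.85) or W-Res replicate 2 (-2.84). EFCAB11 (-3.03, or -1.85 with its 3 loci summed), NOP10 (-2.30) and RABIF (-2.22) were lower too, with EFCAB11 listed at 0 in W-Res replicates 2 and 3. RABIF, at 17.6, 16.8 and 15.1 against 1.3, 14 and 0.508, missed the standard without W-Con replicate 1 (-2.18), W-Res replicate 1 (-1.87) or W-Res replicate 3 (-1.57). Mitochondrially encoded genes were erratic, with CYTB at 1015 and 822 FPKM in W-Res replicates 1 and 3 and at or near 0 in the other 4 libraries, and several others were listed at 0 in some libraries. ND6, a subunit of complex I, was an exception, at 41.4, 44.7 and 46.9 against 15.4, 18.6 and 1.09 (-2.37), which met the standard with each library left out, and at 28 days it was lower again (-1.97, no overlap). PARP15, a poly(ADP-ribose) polymerase family member with 1 locus and no value near 0, was at 39.9, 34.1 and 17 against 3.81, 2.60 and 6.21 (-2.57, standard error 0.38, limma adjusted p = 0.178).

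The remaining largest rises and smallest P values fall outside the lists. B3GALT4, a galactosyltransferase of ganglioside synthesis, was at 1.5, 2.0 and 2.18 FPKM in W-Con and 11, 9.74 and 12.2 in W-Res (2.05, standard error 0.21, limma adjusted p = 0.0806). A gene known only by the identifier ENSSSCG00000028568 was at 2.53, 3.27 and 3.34 against 16.3, 17.8 and 13.3 (2.05, same adjusted p). Both had narrow groups that lay far apart. HSPB6, a small heat shock protein of muscle, was at 2.13, 0.227 and 6.70 against 15.3, 27.0 and 10.4 (2.48), TRH, thyrotropin-releasing hormone, at 0, 0.0131 and 0.816 against 1.57, 13.2 and 4.87 (2.29), and CYP2W1 and KIAA0930 (2.30 and 2.26) were highest in W-Res replicate 3.

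At 28 days 261 of 13645 loci (1.91%) met the standard, 126 higher (0.923%) and 135 lower (0.989%) in PW-Res. Of 25 T cell markers tested in these other piglets 6 were lower, the median was -0.78 and 3 were above 0 (41.3% of all loci at 28 days). Their summed FPKM were 359, 433 and 347 in PW-Con and 238, 204 and 102 in PW-Res, again without overlap. GNLY was at 96.4, 73.4 and 64.0 FPKM against 33.1, 26.2 and 6.71 (-2.01) and NOS2 at 40.6, 74.8 and 50.3 against 17.5, 5.16 and 4.87 (-2.64). The difference of the 2 contrasts, tested over all 12 libraries, had an unadjusted P under 0.05 for 0 of 26 T cell markers (13.2% of all loci), with a median of -0.08 (limma). Of the interferon-gamma list 6 of 29 were lower at 28 days, and the median was -0.68. Other immune lists also had medians below 0 at this age. Of 12 B cell and plasma cell markers 2 were lower and 1 was above 0 (median -0.50), of 13 myeloid markers 1 was lower and 3 were above 0 (-0.30), and of 33 inflammatory genes 4 were lower and 5 above 0 (-0.55). The difference between ages met the standard, with the higher fold change at 21 days, for 2, 2 and 6 members of these 3 lists (4.94% of all loci).

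The smooth muscle difference was not seen at 28 days. Of the 16 markers 0 were called in either direction (limma, 2 with an unadjusted P under 0.05, both lower, as for 6.90% of all loci), the median was -0.40, and the summed FPKM were 633, 921 and 769 in PW-Con against 910, 671 and 301 in PW-Res. The difference between ages met the standard for 11 of 16 in limma (4.94% of all loci in that direction), each with a larger value at 21 days, but no locus of the 14332 tested reached an adjusted p of 0.05 in that test. MYL9 was at 37.0, 74.5 and 56.5 FPKM against 52.2, 40.0 and 7.48 at 28 days (-1.05), a difference between ages of 3.88 (standard error 1.08, limma adjusted p = 0.26).

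Fat absorption genes pointed down at 21 days and up at 28 days, with medians of -0.30 and 0.41, and 4 of 24 met the standard for the difference (1.98% of all loci in that direction). MTTP was at 135, 78.0 and 40.2 FPKM in PW-Con and at 108, 100.3 and 165 in PW-Res (0.68), a difference between ages of -2.02 (standard error 0.60, limma adjusted p = 0.26). ENPEP (0.19 at 28 days) and SLC2A2 (0.50) had differences of -2.04 and -1.61. In all of these the 28-day groups overlapped.

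**Figure D5:**
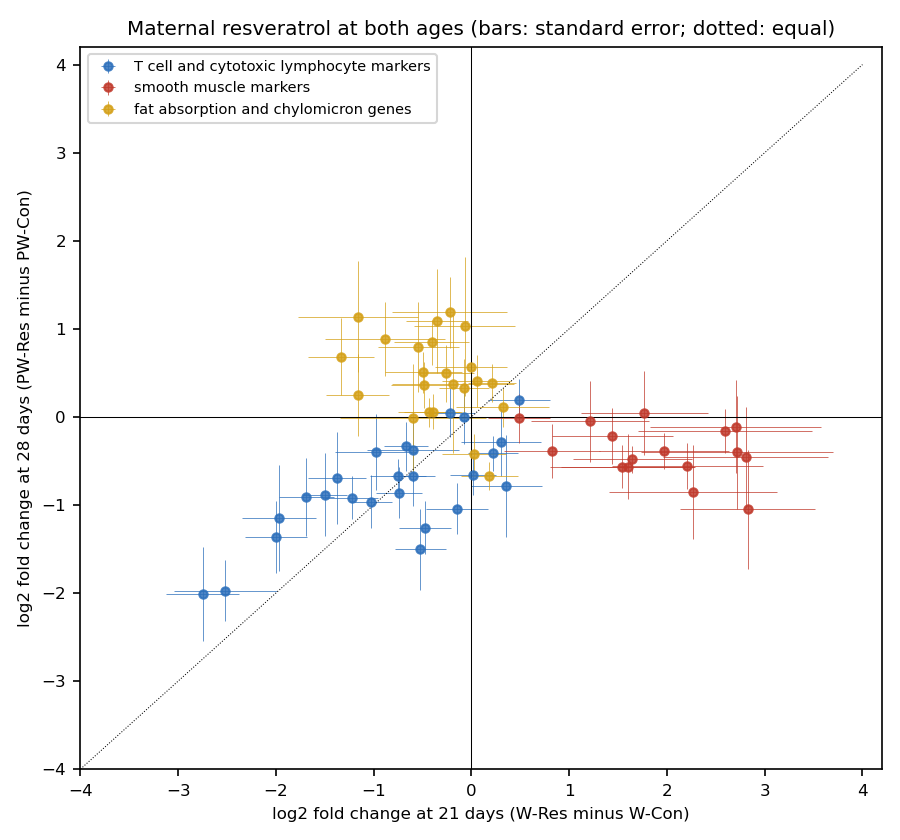
Log2 fold change with maternal resveratrol at 28 days (vertical) against that at 21 days (horizontal) for the members of 3 lists, with lines for the standard error and a dotted line where both are equal. Of 25 T cell markers 18 lie in the lower left (list medians -0.64 and -0.78), 15 of 16 smooth muscle markers in the lower right (1.87 and -0.40), and 17 of 23 fat absorption genes in the upper left (-0.30 and 0.41).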

How the data were processed

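The deposited table holds FPKM per locus and library, which the authors computed from poly(A) RNA sequenced as paired ends on an Illumina HiSeq instrument. The submitters' processing notes list Bowtie 0.12.2, HISAT2 2.0, StringTie 1.3.0 and the builds Sscrofa10.2 and mm8, and the study's methods name StringTie and Ballgown for the FPKM. Of 41264 loci, 17650 (42.77%) have no gene name. FPKM hold no counts, so no counting interval is given. The study's supplement reports read totals for the control libraries of both ages. Read totals for the resveratrol libraries are not given in the sources used here.

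Groups were taken from the labels, 3 biological replicates each. P-values measure only the spread between these piglets. log2(FPKM + 1) of the named loci that averaged 0.5 FPKM or more was fitted in limma 3.58.1 (R 4.3.3) with a trended variance, two-sided, with Benjamini-Hochberg adjustment over all loci tested. The difference between ages was fitted over all 12 libraries. The standard of the study, an unadjusted P under 0.05 with a log2 fold change above 1 or below -1, marks a call. With 3 against 3 an exact permutation test cannot go below p = 0.1, so none is given. The pseudocount understates changes of low genes.

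Named loci are the 12 largest rises and 12 largest falls among calls with a mean of at least 1 FPKM and no overlap of the groups, the 3 loci with the smallest P, every called member of a list and the 3 highest members of each list, with clone-based names left out. A further part of the rule gives SIRT1 and PRKAA1 by value, as proposed targets of resveratrol. Other genes named (such as CD8A, LCK, NQO1 or KRT20) were chosen after their values were seen. The members and the 28 gene lists were chosen with earlier results of these data known, and 3 further lists were added after values had been seen. Alternatives were another pseudocount, other filters, median-of-ratios and quantile scaling, eBayes without a trend, a replicate block, a linear model in Ballgown's form (a library term from values up to the 75th percentile, without variance moderation), summed loci, each replicate left out, and levels of FABP6 or smooth muscle genes as covariates. The fits were tested on simulated data. Tables and figures were made with Python 3.11.15, pandas 2.3.3, scipy 1.17.1 and matplotlib 3.10.9. Some items are not reported here.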

Additional observations from a re-analysis of the deposited data

Results flagged for a closer look

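These 3 genes differed between control and resveratrol piglets in opposite directions at the ages compared, with no overlap of the groups at either age. SOD3 had a log2 fold change of 1.03 at 21 days and -0.86 at 28 days (difference 1.89, standard error 0.54). CCL21 had 1.38 and -0.69 (difference 2.06, standard error 0.58). PRPH had 1.35 and -0.80 (difference 2.15, standard error 0.60). The genes were picked for these opposite directions in the same libraries, so the difference restates the choice and is given as a description.

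Loci without a gene name, which enter no comparison, had a median of 0.685 FPKM in W-Res replicate 2 and 0.419 in W-Res replicate 3, above the highest control library (0.162).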

How the results depend on the processing

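The number of loci past the standard, 369 higher and 231 lower, became 711 and 407 with a pseudocount of 0.1 and 134 and 115 with a minimum of 5 FPKM, and the linear model of Ballgown's form gave 101 higher. Leaving out 1 replicate gave 211 to 669 higher (211 without W-Con replicate 3, 220 without W-Res replicate 2, 669 without W-Res replicate 3) and 200 to 346 lower. The 1907 loci with an unadjusted P under 0.05 became 843 with the higher minimum, 741 in Ballgown's form, 876 with the smooth muscle covariate and 1065 to 2298 with 1 replicate left out. The 1 locus with an adjusted p under 0.05 in limma became 0 with no filter, a minimum of 5 FPKM, the replicate block, Ballgown's form, summed loci or the smooth muscle covariate, 7 with all 12 libraries in the fit and 0 to 5 with 1 replicate left out. For the difference between ages, the 708 higher became 1064 (pseudocount 0.1), 231 (minimum 5 FPKM) and 425 to 972 (1 replicate left out), the 284 lower became 443 (median-of-ratios), 135 (minimum 5 FPKM) and 207 to 437, the 1888 with an unadjusted P under 0.05 became 797 (minimum 5 FPKM) and 1210 to 2310, and the 0 with an adjusted p under 0.05 became 0 to 2. T cell calls were 8 to 12 under every alternative run, and 8 to 10 with 1 replicate left out. Smooth muscle calls were 0 in Ballgown's form and 2 to 14 with 1 replicate left out. Matrix calls were 7 with the higher minimum, 0 in Ballgown's form or with the smooth muscle covariate, 2 without W-Res replicates 2 and 3, and 2 to 19 with 1 replicate left out, and their median turned to -0.2057 in Ballgown's form and -0.2067 with the covariate. Interferon-gamma calls were 1 in Ballgown's form and 6 to 11 with 1 replicate left out. The NRF2, B cell, myeloid, tight junction, enteroendocrine, clock and pancreas lists had 0 calls in Ballgown's form. Among the named loci past the standard in the main fit, those that turned were NR2C2 (-0.0112 with loci summed), COL5A1 (-0.0991 in Ballgown's form, -0.0227 with the covariate), COL6A2 (-0.1067 with the covariate), MMP2 (-0.1781) and CCR9 (-0.3872), both in Ballgown's form. Some loci not called in the main fit also changed sign, such as ANPEP (-0.88, and 0.07 with the covariate). The fewer loci tested lower the counts at the higher minimum, and the cause of the other shifts was not tested.

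W-Con and W-Res samples with the same number did not deviate together (r = -0.0211, 0.00122 and -0.1 across 15005 loci, which are not independent replicates). Those with different numbers had r from -0.0586 to 0.0740. So few pairs cannot show whether the numbers pair the piglets, and same numbers at different ages were not compared. With the replicate block 410 loci were higher and 233 lower. Low FPKM were not weighed by depth, which is not given for the resveratrol libraries in the sources used here. The covariates, the fit without W-Res replicates 2 and 3 and 3 lists were chosen after seeing the data.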
